A study of Sus scrofa with 36 samples.

Results

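Expression of 9 genes that carry fatty acids into mitochondria, oxidise them there or in peroxisomes, or coat stored fat was followed in pig hearts over the postnatal weeks in which the heart changes its main fuel. The genes are CPT2, SLC25A20, CRAT, MLYCD, ACADM, ACAD9, ETFB, ACAA1 and PLIN2. They were chosen by name, and all 9 were found, each as 1 gene identifier, among the 9815 genes of the gene count table, which holds genes of chromosomes 1, 2, 6 and 13 only. All 9 passed the filter on low counts, which left 5526 genes tested. Whole hearts of domestic Yorkshire pigs, fed normally and otherwise untreated, were collected on day 1 (P1), day 3 (P3), day 7 (P7) or day 28 (P28) of life. Total RNA of 12 of these pigs, 3 at each age, was depleted of ribosomal RNA and sequenced by CD Genomics, and reads were counted per gene. The columns number the pigs of an age 4, 5 and 6, and these numbers name the libraries here.

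The fetal heart lives largely on glucose and lactate, and after birth it comes to draw most of its energy from fatty acids in milk. Long-chain fatty acids cross the inner mitochondrial membrane as carnitine esters. They are loaded by CPT1 at the outer membrane, exchanged for free carnitine by the translocase SLC25A20 and returned to coenzyme A by CPT2. Malonyl-CoA blocks CPT1, and MLYCD breaks malonyl-CoA down. In the matrix, acyl-CoA dehydrogenases begin each turn of beta-oxidation and hand their electrons to the electron transfer flavoprotein, of which ETFB is the beta subunit. CRAT buffers acetyl-CoA as acetylcarnitine, ACAA1 ends the turn of beta-oxidation in peroxisomes, and PLIN2 coats lipid droplets.

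The libraries held 8887176 to 14883849 counts each. Between 7.09% and 19.7% of these counts fell on 9 genes named Metazoa_SRP, the RNA of the signal recognition particle. The P3 libraries were the least alike, with a median correlation to the other libraries of their age of 0.968 to 0.975, against 0.979 to 0.988 at the other ages, and P3 library 5 was both the shallowest and the least alike. The nearest library to P3 library 4 and to P3 library 6 was a P1 library. The 8 cardiomyocyte markers in the table, such as ACTC1 and TNNI3, summed to at least 73320 CPM in every library. CPM is the count of a gene scaled to a fixed library total and adjusted by the trimmed mean of M-values (TMM). Of the 3 adipocyte markers in the table, ADIPOQ and CIDEC had at most 14 and 10 counts in any library, and LIPE, which is also a gene of lipid droplet turnover, had 291 to 750.

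CPT2 and SLC25A20, which both belong to the carnitine shuttle, fell between P7 and P28, and no member was called higher at the later of any pair of ages. With edgeR's quasi-likelihood test and a Benjamini-Hochberg adjusted p under 0.05 over all genes, CPT2 and SLC25A20 were lower at P28 than at P1, P3 and P7, and ETFB was lower at P28 than at P3. An effect of age over all 4 ages together was called for 3 of the 9 members, which were CPT2 (adjusted p = 0.0064), SLC25A20 (adjusted p = 0.00336) and ETFB (adjusted p = 0.0261), beside 21.4% of all genes tested. Between P1 and P28, 2 members were called lower and 0 higher, while 7.93% of all genes were called lower and 7.38% higher. From P3 to P28, 3 members were called lower and 0 higher, beside 8.51% and 7.98% of all genes. From P7 to P28, 2 were called lower and 0 higher, beside 10.5% and 8.34%. These 3 comparisons share the P28 libraries and are not independent of each other.

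Among the first 3 ages no member was called. The share of all genes called was 0.0543% between P1 and P3, 2.01% between P1 and P7 and 2.21% between P3 and P7. At an unadjusted p under 0.05, 2, 2 and 3 members and 840, 888 and 1044 of all genes tested passed in these comparisons. The median log2 fold change of the members, with positive values for a higher level at the later age, was 0.14 between P1 and P3, −0.08 between P1 and P7 and −0.28 between P1 and P28, and that of all genes tested lay between −0.04 and 0.01 in all 6 comparisons. From P3 to P28 the members' median was −0.58, and from P7 to P28 it was −0.19. The summed level of the 9 genes was 2893 ± 257 CPM at P1 (SD, n = 3), 3195 ± 715 at P3, 2923 ± 341 at P7 and 2662 ± 142 at P28, and the ranges of the ages overlapped. This sum is dominated by ACADM and CRAT.

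**Figure D1:**
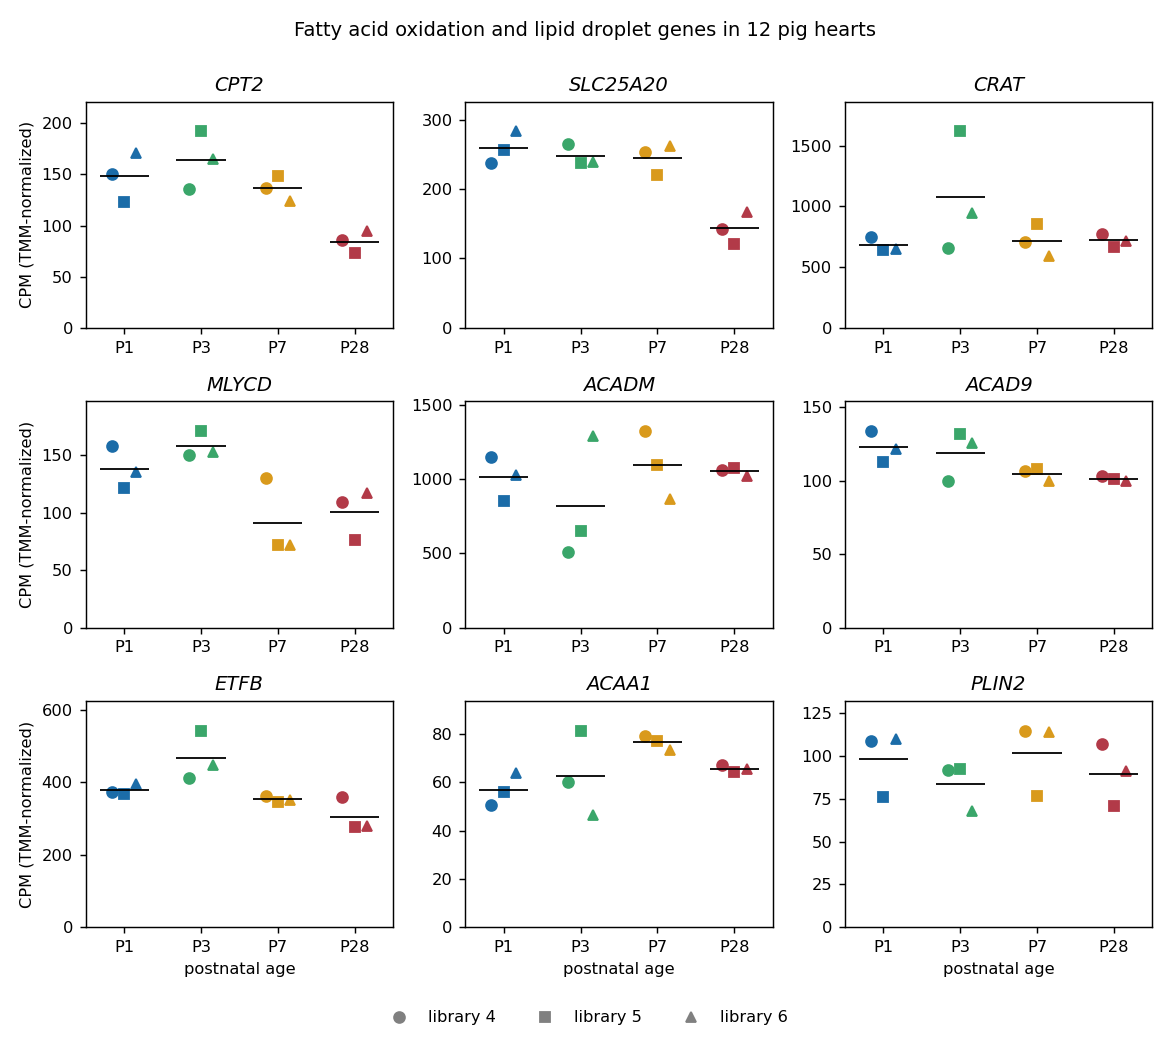
Level of each of the 9 genes in CPM, scaled with TMM, by postnatal day, with 1 point for each library (3 at each age, marker shapes for the library number) and a line at the mean of each age. CPT2 and SLC25A20 were the only members whose 3 P28 libraries lay below all 9 younger libraries.

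CPT2, carnitine palmitoyltransferase 2 of the inner mitochondrial membrane (ENSSSCG00000003851, at 159036821 to 159061327 on chromosome 6), was at 150, 123 and 171 CPM in the P1 libraries 4, 5 and 6. The P3 libraries had 136, 192 and 165 CPM, and the P7 libraries 137, 148 and 124. At P28 the libraries had 85.5, 72.9 and 94.5 CPM, so that the highest P28 library lay below the lowest of the 9 others at 123. In the whole table, 441 genes, or 7.98% of those tested, had all P28 libraries below all others. The P28 mean of 84.3 ± 10.9 CPM stood against 148 ± 24 at P1, a 1.76-fold lower level (log2 fold change −0.82, SE 0.16, 95% interval −1.17 to −0.46, adjusted p = 0.00654). From P3 the log2 fold change was −0.96 (SE 0.16, adjusted p = 0.0028) and from P7 −0.69 (SE 0.16, adjusted p = 0.0117). Without P28 library 5, the lowest library, the change from P7 was −0.59 and its adjusted p was 0.0591, whereas the changes from P1 and P3 were called whichever library was left out. In a whole heart, fewer cells of a type and less RNA per cell cannot be told apart.

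SLC25A20, the carnitine-acylcarnitine translocase (ENSSSCG00000011366, at 31523821 to 31553286 on chromosome 13), had libraries that overlapped from P1 to P7 and a lower level at P28. Its libraries had 237, 256 and 283 CPM at P1, 265, 238 and 239 at P3, and 253, 220 and 262 at P7. The P28 libraries, with 142, 121 and 167 CPM, were all below the lowest of the other 9, at 220. The mean went from 259 ± 23.1 CPM at P1 to 144 ± 23 at P28, a 1.8-fold lower level (log2 fold change −0.85, SE 0.14, 95% interval −1.14 to −0.55, adjusted p = 0.00184). From P3 the change was −0.78 (SE 0.14, adjusted p = 0.00295) and from P7 −0.77 (SE 0.14, adjusted p = 0.00248), and all 3 were called in each of the 12 fits that left out 1 library. Between P1, P3 and P7 the log2 differences were no larger than 0.08 in size, with a 95% interval of −0.37 to 0.21 for P1 against P7.

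CPT2 and SLC25A20 were also counted against each other member within a library, a comparison added after the data were seen. The P28 libraries of both genes already lay below all 9 others in CPM, so low ratios are not separate support. How often ratios of other genes behave in this way was not counted. For each of the pair, the P28 ratios lay below those of all 9 other libraries for 4 of 8 denominators, which were ACADM, ACAD9, ACAA1 and PLIN2, and overlapped with them for ETFB, CRAT, MLYCD and the other of the pair. The counts of SLC25A20 divided by those of ACADM were 0.207 to 0.299 at P1, 0.185 to 0.524 at P3, 0.191 to 0.304 at P7 and 0.113 to 0.164 at P28. The ratio of CPT2 to ACADM was 0.131 to 0.166 at P1, 0.127 to 0.294 at P3, 0.104 to 0.143 at P7 and 0.0677 to 0.0927 at P28. The ratio of SLC25A20 to CPT2 overlapped between ages, at 1.58 to 2.07 at P1, 1.24 to 1.96 at P3, 1.49 to 2.12 at P7 and 1.67 to 1.77 at P28.

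**Figure D2:**
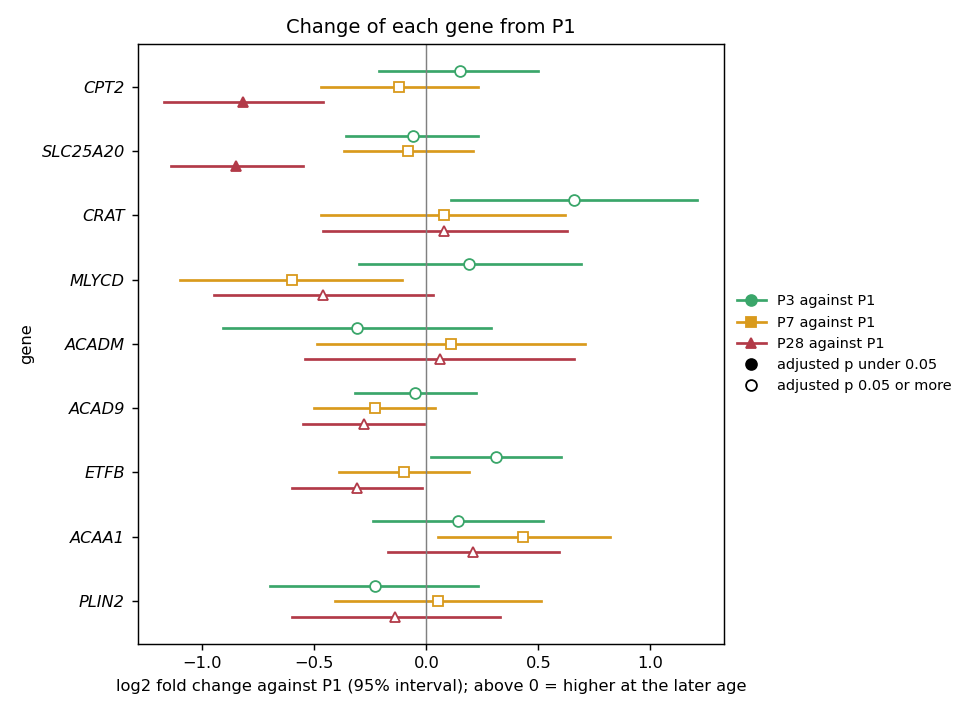
Log2 fold change of each member from P1 to P3, P7 and P28 in the edgeR fit of all 4 ages, with 95% intervals and filled markers for an adjusted p under 0.05. At P28 the intervals of CPT2 and SLC25A20 lie furthest below 0, at −1.17 to −0.46 and −1.14 to −0.55, and those of CRAT, MLYCD, ACADM, ACAA1 and PLIN2 span 0.

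CRAT, carnitine O-acetyltransferase (ENSSSCG00000005671, at 269386650 to 269401331 on chromosome 1), moves acetyl groups between carnitine and coenzyme A. It had 749, 642 and 650 CPM at P1, 661, 1618 and 949 at P3, 711, 855 and 591 at P7, and 776, 666 and 719 at P28. P3 library 5 was the highest of all 12, 2.74 times the lowest library, while P3 library 4 lay within the range of P1. The log2 change from P1 to P3 was 0.66 (SE 0.25, adjusted p = 0.268), and without P3 library 5 it was 0.24. From P3 to P28 it was −0.58 (adjusted p = 0.133), and from P3 to P7 also −0.58 (adjusted p = 0.234). Without P3 library 4 both changes passed at an adjusted p under 0.05 (−0.83, adjusted p = 0.0184, and −0.84, adjusted p = 0.0485). Without P3 library 5 they were −0.16 (adjusted p = 0.545) and −0.16 (adjusted p = 0.69). The study's threshold, a p up to 0.05 without adjustment and a log2 fold change larger than 0.5 in size, passed CRAT as higher at P3 than at P1 and as lower at P7 and P28 than at P3. Between P1 and P28 the difference was 0.08 with a 95% interval of −0.46 to 0.63.

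MLYCD, malonyl-CoA decarboxylase (ENSSSCG00000031450, at 4681664 to 4698661 on chromosome 6), was lowest at P7 and P28 in its means, but no comparison passed the test. Its libraries had 158, 121 and 135 CPM at P1 and 150, 171 and 153 at P3. At P7 they had 130, 71.8 and 71.4 CPM, and at P28 109, 76.2 and 117. Libraries 5 and 6 of P7 thus lay below all P1 and P3 libraries and library 4 within the range of P1. The log2 change was −0.8 from P3 to P7 (SE 0.23, 95% interval −1.29 to −0.3, adjusted p = 0.0904) and −0.65 from P3 to P28 (adjusted p = 0.0681). The test over all ages gave an adjusted p of 0.0548. Without P7 library 4 the change from P3 to P7 was −1.14 (adjusted p = 0.0249) and that from P3 to P28 −0.65 (adjusted p = 0.025), and DESeq2 called both (adjusted p = 0.0292 and 0.0433).

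ACADM, the medium-chain acyl-CoA dehydrogenase (ENSSSCG00000003776, at 137541380 to 137595108 on chromosome 6), was the most abundant member per length, at 357 CPM per kilobase of gene model on average, above 98.2% of the genes tested. It had 1149, 855 and 1029 CPM at P1, 506, 651 and 1293 at P3, 1324, 1097 and 863 at P7, and 1061, 1076 and 1019 at P28. The P3 libraries were split, with 2 below every library of the other ages and 1 among the highest, and the SD was 419 CPM at P3 against 29.4 at P28. Between P1 and P28 the log2 difference was 0.06 with a 95% interval of −0.54 to 0.66 (adjusted p = 0.91). From P3 the log2 change was 0.42 to P7 (adjusted p = 0.432) and 0.36 to P28 (adjusted p = 0.387). Without P3 library 6, the high one, ACADM was called higher at P7 than at P3 (0.92, adjusted p = 0.0248) and at P28 than at P3 (0.86, adjusted p = 0.0177). Over the 12 fits without 1 library, the smallest changes were 0.17 from P3 to P7 and 0.11 from P3 to P28. A pseudogene, ENSSSCG00000041868, lies inside the ACADM model and held 957 to 2446 counts, 14.7% to 24.6% of those of ACADM in the same library.

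ACAD9, an acyl-CoA dehydrogenase that also serves as an assembly factor of respiratory complex I (ENSSSCG00000023354, at 71374961 to 71427131 on chromosome 13), varied least of the 9 genes, with a ratio of 1.35 between its highest and lowest library. It had 134, 113 and 122 CPM at P1, 99.6, 132 and 126 at P3, 107, 108 and 100 at P7, and 103, 101 and 99.9 at P28. All P28 libraries lay below all P1 libraries, but the log2 difference of −0.28 (SE 0.13) had an adjusted p of 0.151.

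ETFB (ENSSSCG00000003229, at 58501808 to 58517580 on chromosome 6) was highest at P3 and lowest at P28. The libraries had 373, 366 and 394 CPM at P1, 410, 542 and 448 at P3, 363, 346 and 351 at P7, and 358, 277 and 278 at P28. Every P3 library was above every library of the other ages, and 2 of the 3 P28 libraries were below all others. The fall from 467 ± 67.8 CPM at P3 to 304 ± 46.5 at P28 was 1.53-fold (log2 fold change −0.62, SE 0.13, 95% interval −0.91 to −0.33, adjusted p = 0.00974), and it was called in all 12 fits without 1 library (adjusted p 0.00679 to 0.0451). With only the P3 and P28 libraries in the fit, its adjusted p was 0.0762. From P1 to P28 the change was −0.31 (adjusted p = 0.135).

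The ETFB counts carry a limit of their own, since the whole ETFB model lies inside the model of CLDND2, a claudin domain gene, at 58499579 to 58520211. CLDND2 was listed with 2865 to 5789 counts, 101% to 102% of those of ETFB in every library, and with the same log2 change of −0.31 from P1 to P28. The CLDND2 model is 5097 bases long and the ETFB model 1135, yet the longer model held few counts beyond those listed for ETFB. How reads in the shared stretch were assigned is not given, and which gene's transcripts they come from was not tested. Other overlaps were smaller. MYD88 overlaps ACAA1 and held 27.9% to 60.7% of its counts, and the correlation of their log2 CPM over the 12 libraries was 0.132. CFAP92 overlaps ACAD9 with at most 9 counts, and ENSSSCG00000045652 overlaps PLIN2 with at most 4. CPT2, SLC25A20, CRAT and MLYCD overlap no other gene of the table.

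**Figure D3:**
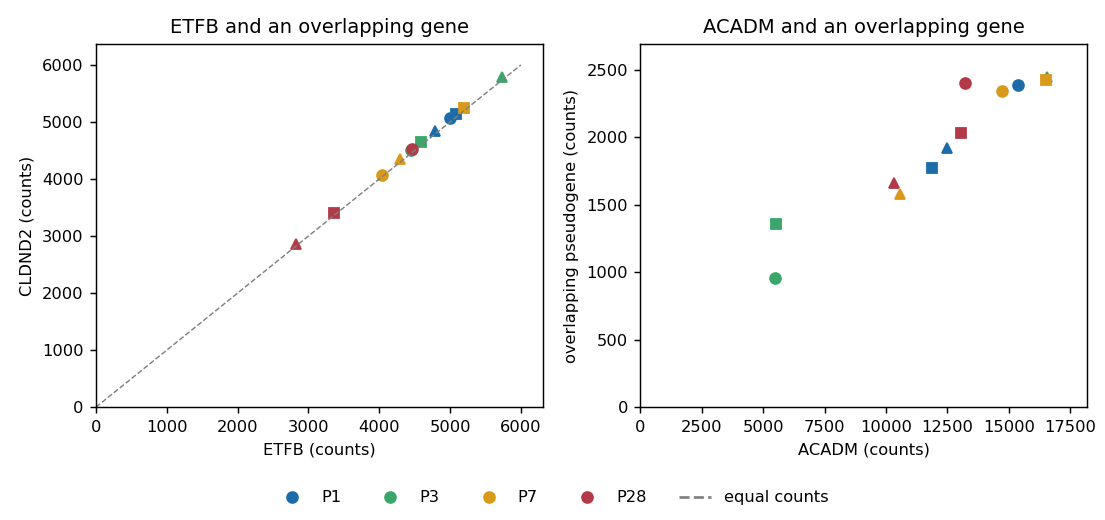
Counts of ETFB (left) and ACADM (right) in each of the 12 libraries on the horizontal axis, against the counts of CLDND2 and of the pseudogene inside ACADM on the vertical axis, with colours for age and marker shapes for the library number (circle 4, square 5, triangle 6). CLDND2 runs along the line of equal counts, at 101% to 102% of ETFB, and the pseudogene holds 14.7% to 24.6% of the counts of ACADM.

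ACAA1, the peroxisomal acetyl-CoA acyltransferase (ENSSSCG00000011250, at 22964875 to 23020143 on chromosome 13), had the lowest level of the members per length over the 12 libraries, at 15.4 CPM per kilobase, although ACAD9 was lower at P7 and P28. It had 50.4, 55.8 and 63.9 CPM at P1, 60.1, 81.4 and 46.3 at P3, 79.1, 77.2 and 73.5 at P7, and 67, 64.3 and 65.4 at P28. The P7 and P28 libraries were all above the P1 libraries, but the log2 change was 0.43 to P7 (SE 0.18, adjusted p = 0.244) and 0.21 to P28 (adjusted p = 0.45).

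PLIN2, perilipin 2 of the lipid droplet coat (ENSSSCG00000035863, at 203683862 to 203709274 on chromosome 1), had overlapping libraries at all 4 ages. It was at 109, 76.1 and 110 CPM at P1, 91.8, 92.4 and 67.7 at P3, 115, 76.6 and 114 at P7, and 107, 70.6 and 91.4 at P28. The log2 difference from P1 to P28 was −0.14 with a 95% interval of −0.6 to 0.33 (adjusted p = 0.709), which leaves room for a change in either direction.

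Read against the background of all genes, libraries did not overlap between P1 and P28 for 6 of the 9 members. Of these, 5 (CPT2, SLC25A20, ETFB, MLYCD and ACAD9) were lower at P28, beside 21.9% of all genes, and 1 (ACAA1) was higher, beside 22.5%. By level per length, ETFB (331 CPM per kilobase), CRAT (139) and SLC25A20 (126) followed ACADM, and CPT2 (44.9), MLYCD (30.9), PLIN2 (19.5) and ACAD9 (16.1) came between these and ACAA1. The order of neighbours turned with age. The mean of ACAA1 was below that of ACAD9 at P1 (13.4 ± 1.61 against 17.6 ± 1.49 CPM per kilobase, SD) and above it at P7 (18.1 ± 0.665 against 15 ± 0.601) and P28 (15.5 ± 0.32 against 14.5 ± 0.241). ETFB was below ACADM at P28 (268 ± 41 against 378 ± 10.6), while at P3 (411 ± 59.7 against 293 ± 150) it was above in libraries 4 and 5 and below in library 6. P3 library 5 held the highest value of the 12 for 5 members, and P28 library 5 the lowest for 3.

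**Figure D4:**
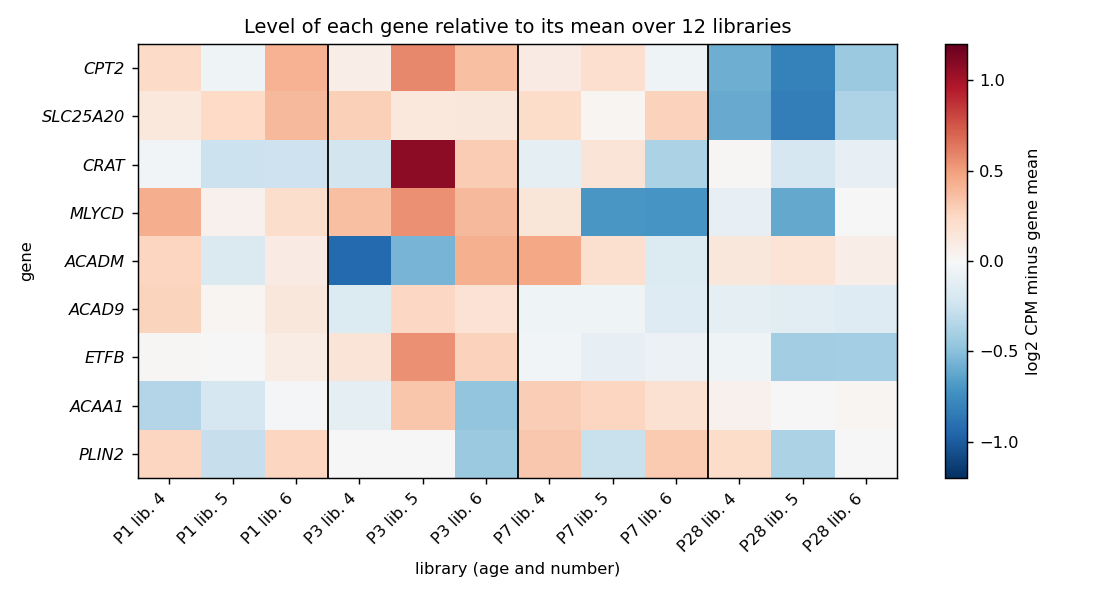
Level of each member in each of the 12 libraries, as the log2 CPM minus the gene's mean over the libraries, with libraries ordered by age. CPT2 and SLC25A20 are low in all 3 P28 libraries, CRAT is highest in P3 library 5, and ACADM is low in P3 libraries 4 and 5.

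Correlations between members varied widely. Over the 12 libraries, Pearson's r of log2 CPM was 0.851 for CPT2 and SLC25A20, and 0.17 after the mean of each age was taken out. The r was 0.815 for CPT2 and ETFB (0.527 within ages), 0.722 for CPT2 and ACAD9 (0.69) and 0.58 for CRAT and ACAD9 (0.834). It was −0.378 for ACADM and ETFB (0.0873 within ages) and −0.381 for MLYCD and ACAA1 (0.155). The 12 libraries differ in age, depth and cell content, any of which can enter these values. Of all 5525 other genes, those most like CPT2 were COLGALT1 (0.947), MEIS3 (0.927) and ACCS (0.926). For SLC25A20 they were GARNL3 (0.961), DIRAS3 (0.953) and PRSS35 (0.953), and for CRAT they were TRAPPC10 (0.964), HECTD3 (0.954) and SIPA1L3 (0.946). ETFB was most like CLDND2 (1.00) and then SAXO3 (0.945), and ACAD9 was most like PFKL (0.935), MUL1 (0.934) and IRF3 (0.915). ACAA1 was most like C19orf44 (0.931) and CDAN1 (0.894), MLYCD most like ENSSSCG00000043327 (0.912), ACADM most like ENSSSCG00000028414 (0.879), and PLIN2 reached only 0.797, with ENSSSCG00000050689.

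The rest of the pathway was read from 7 lists of 148 genes, of which 31 were in the table and 29 were tested. SLC27A2, a fatty acid transporter, and CIDEC, a lipid droplet protein, had too few counts. No list gene was called between P1 and P3, P1 and P7 or P3 and P7. Between P1 and P28, 2 were called higher and 2 lower, and between P3 and P28 also 2 and 2, which is 13.8% of the 29 beside 15.3% and 16.5% of all genes tested. For P7 against P28 the calls were 7 up and 1 down, or 27.6% beside 18.8% of all genes (8.34% higher and 10.5% lower). The median log2 fold change of the 29 genes was 0.09 from P1, −0.03 from P3 and 0.05 from P7 to P28.

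The largest rise on the lists was in ketone body use, where BDH1, the mitochondrial 3-hydroxybutyrate dehydrogenase, had 112, 59.8 and 50.9 CPM at P1 and 264, 209 and 217 at P28. Its log2 fold change of 1.63 (SE 0.35, adjusted p = 0.00898) was carried by libraries that did not overlap, and it was called against P3 and P7 as well. In the peroxisomal list 1 of 7 genes rose from P1 to P28. This was ECH1, with 136 ± 13.4 CPM at P1 and 189 ± 20.8 at P28 (log2 fold change 0.47, adjusted p = 0.0357). In the uptake list 1 of 4 genes fell, the fatty acid transport protein SLC27A4, with 216 ± 10.1 CPM at P1 and 161 ± 13.5 at P28 (−0.42, adjusted p = 0.0381). The regulator PPARG, a nuclear receptor known for its part in fat storage, fell from 18.6 ± 2.92 to 10.7 ± 2.25 CPM (−0.8, adjusted p = 0.0193), and the other 5 regulators tested were not called with all 12 libraries.

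From P7 to P28, PEX7, HACL1 and ECH1 rose among the 7 peroxisomal genes, by log2 fold changes of 0.69, 0.55 and 0.44 (adjusted p = 0.0222, 0.0226 and 0.0395). PEX7 is an import receptor and HACL1 a lyase of alpha-oxidation. The P28 mean of PEX7, 42 ± 3.24 CPM, was near that of P1, 38.7 ± 2.97 (0.12, adjusted p = 0.704). Of the 6 regulators, 3 rose as well. The receptor ESRRA went from 459 ± 51.1 to 688 ± 49.1 CPM (0.58, adjusted p = 0.0248), the coactivator PPARGC1B from 111 ± 12.2 to 216 ± 61.6 (0.97, adjusted p = 0.0372) and the AMP-activated kinase subunit PRKAA2 from 370 ± 13.1 to 537 ± 125 (0.54, adjusted p = 0.0443). ESRRA had 817, 518 and 619 CPM at P1, so its P28 libraries, with 745, 660 and 660, lay within the P1 range. PPARGC1B had 230 ± 117 CPM at P3 and did not pass between P3 and P28 (−0.09, adjusted p = 0.858). PRKAA2 was also called higher at P28 than at P3 (0.85, adjusted p = 0.00661), but not than at P1 (0.41, adjusted p = 0.119). These genes were picked out after their values were seen, as was AGPAT4, an enzyme of glycerolipid synthesis, which fell from P7 (−0.75, adjusted p = 0.00991).

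Many of these list calls depended on single libraries. When each library was left out in turn, BDH1 was called higher at P28 than at P1, P3 and P7 in all 12 fits, and AGPAT4 lower than at P7 in all 12. Between P1 and P28, PPARG was called in 9 of 12 fits, ECH1 in 6 and SLC27A4 in 3. Other genes were called once a library was left out. Among the regulators between P1 and P28 these were PPARGC1B in 4 of 12 fits, NRIP1 in 2 and RXRA in 1, and without P3 library 5, which is in neither group, 12 of the 29 pathway genes were called (7 higher and 5 lower) instead of 4. Between P7 and P28, PEX7 and HACL1 were called in 9 of 12 fits, ESRRA and PPARGC1B in 7, ECH1 in 6 and PRKAA2 in 5. The highest adjusted p among the fits was 0.129 for ECH1 and 0.124 for SLC27A4 between P1 and P28, and 0.179 for PRKAA2 between P7 and P28.

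Apart from the members, no gene of the carnitine, mitochondrial beta-oxidation and lipid droplet lists was called between P1 and P28 with all 12 libraries. Only 1 of 10, 2 of 23 and 7 of 33 genes of these lists were tested, so most of each list was not covered. CPT1C, the only gene of the carnitine list in the table that is no member, was near the detection limit with 2.58 ± 0.345 CPM at P1 and 3.53 ± 0.0814 at P28 (0.46, adjusted p = 0.247). ACAA2, the mitochondrial thiolase, had 976 ± 108 CPM at P1 and 929 ± 56.2 at P28 (−0.07, adjusted p = 0.769), and ACAD11 differed by 0.09 (adjusted p = 0.731). In the lipid droplet list the hormone-sensitive lipase LIPE differed most, at 0.93 (adjusted p = 0.0781), followed by ABHD5, the activator of triglyceride lipase, at −0.62 (adjusted p = 0.0843). Both were called in 1 of the 12 fits without 1 library, that without P3 library 5 (adjusted p = 0.00587 and 0.00817). Whether CPT2 or SLC25A20 differed in change from these genes was not tested.

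**Figure D5:**
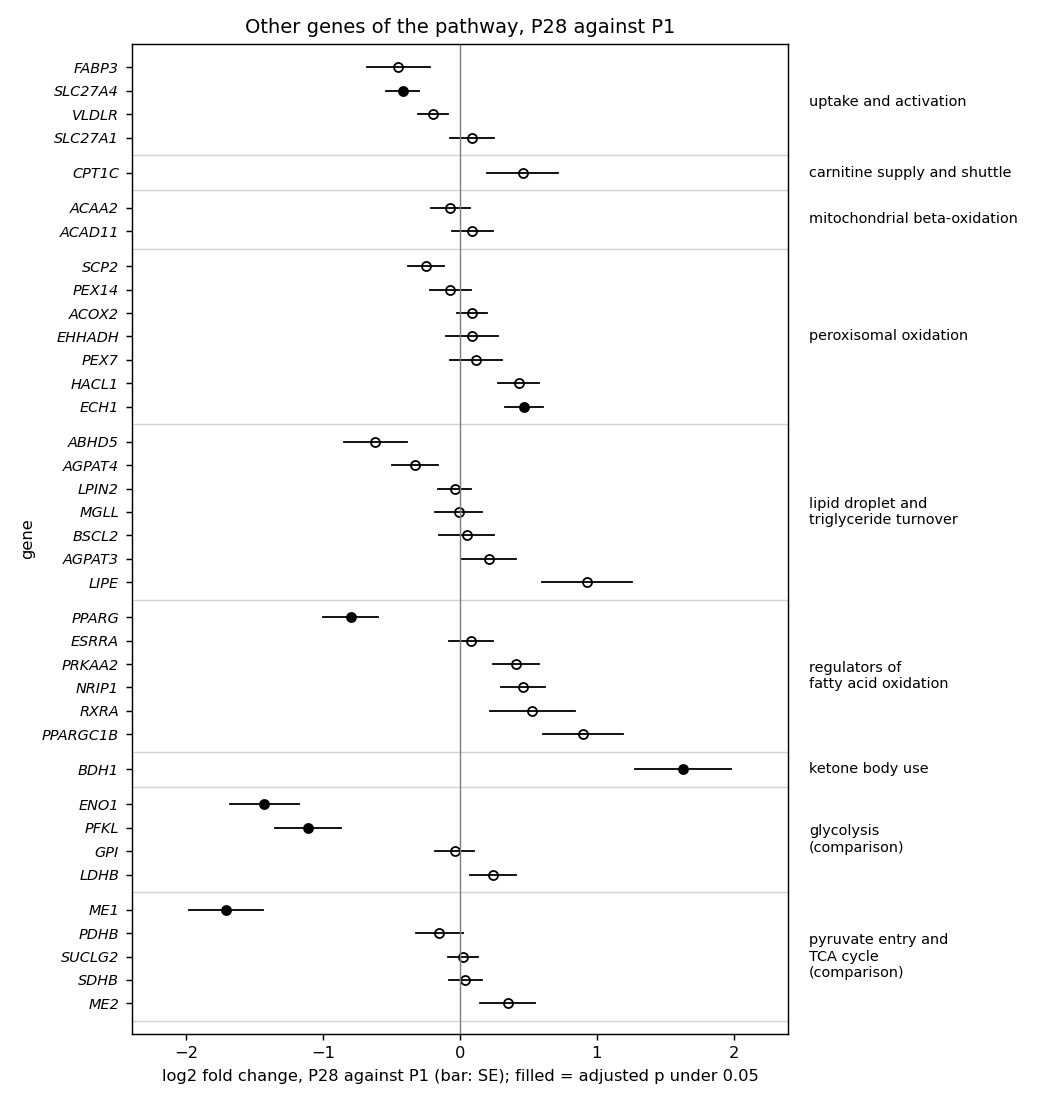
Log2 fold change from P1 to P28 with its SE for the tested genes of the pathway lists and the comparison lists (of the ketone body list, BDH1 alone), with filled points for called genes. Of the 29 pathway genes other than the members, 2 were called higher (BDH1, ECH1) and 2 lower (SLC27A4, PPARG).

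For comparison, 2 of the 4 tested glycolysis genes fell from P1 to P28, a comparison in which 7.93% of all genes were called lower. The enolase ENO1 went from 756 ± 258 to 280 ± 22 CPM (−1.43, SE 0.25, adjusted p = 0.00291), and the phosphofructokinase PFKL from 544 ± 184 to 253 ± 19 (−1.11, SE 0.24, adjusted p = 0.00908). Both falls were called in all 12 fits without 1 library. ENO1 was also called lower at P7 than at P1 (−1.14, adjusted p = 0.0396), but in 5 of these 12 fits only. LDHB, the heart form of lactate dehydrogenase, rose from P7 to P28 (0.73, adjusted p = 0.00991, or 0.0606 without P7 library 5) and was named after its values were seen. Of 5 genes of pyruvate entry and the tricarboxylic acid cycle, ME1, the cytosolic malic enzyme, fell from 21 ± 5.67 to 6.4 ± 1.71 CPM between P1 and P28 (−1.71, SE 0.27, adjusted p = 0.00158).

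Markers of cell types moved with age beside these results. The 4 fibroblast markers in the table (FBN1, COL5A1, COL8A1 and TCF21) summed to 4560 to 5144 CPM at P1, 2699 to 5092 at P3, 4704 to 5240 at P7 and 1408 to 1743 at P28. Of these 4, 3 were called lower at P28 than at P1, 4 than at P3 and 3 than at P7. The 8 cardiomyocyte markers summed to 84969 to 94710 CPM at P1, 80055 to 96474 at P3, 73320 to 82972 at P7 and 91645 to 102783 at P28. From P7 to P28, where CPT2 and SLC25A20 fell, 5 of the 8 were called higher (TNNC1, TNNI3, CKM, HRC and MYBPC3) and 0 lower. Against P3 only CKM was called higher, and against P1 CKM and MYBPC3 were called higher and ACTC1 lower. The 6 macrophage markers summed to 483 to 673 CPM at P1, 454 to 576 at P3, 403 to 547 at P7 and 734 to 1160 at P28. The complement genes C1QA, C1QB and C1QC were called higher at P28 than at P3 and P7, and C1QB also than at P1.

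The 4 endothelial markers summed to 597 to 666 CPM at P1, 572 to 770 at P3, 631 to 793 at P7 and 621 to 690 at P28, but single genes moved in opposite directions. TEK was called higher at P28 than at P1 and P3, and TIE1 lower than at P3 and P7. PDGFRB and NOTCH3, markers of mural cells, summed to 349 to 419 CPM at P1, 425 to 1185 at P3, 357 to 552 at P7 and 210 to 458 at P28, and PDGFRB was called lower at P28 than at P3. The erythroid markers EPB41 and EPB42 summed to 152 to 194 CPM at P1, 201 to 231 at P3, 206 to 247 at P7 and 212 to 217 at P28. Nearly all of this sum was EPB41. The mean of EPB42 was 1.72 CPM at P1, 7.03 at P3, 4.06 at P7 and 1.2 at P28. EPB42 was called lower at P28 than at P3 and P7, and its difference between P1 and P3 was not called (2.02, adjusted p = 0.0866). The part of cell makeup in the lower levels of CPT2, SLC25A20 and ETFB was not tested.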

How the data were processed

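The authors collected hearts at 4 ages, and CD Genomics sequenced ribosomal RNA-depleted total RNA of 12 pigs, 3 per age. The authors deposited raw read counts per gene without normalization. The aligner, genome build, strand setting and treatment of overlapping genes behind this table are not given in the sources used here. The submitters' processing notes name STAR 2.7.9a, MultiQC 1.11 and Sscrofa10.2 for the series. Positions are as the file gives them, and 99.9% of 4355 genes, including 9 of 9 members, overlapped the gene of the same name in the RefSeq annotation of Sscrofa11.1. The last line of the table was incomplete and was left out, and 283 missing gene names were filled from a reference table of gene names. The circRNA and miRNA tables were not used here, and the planned search of promoters was not made. A single gene of the pathway lists, counted in their totals, is not reported here.

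Counts were scaled by TMM, and a gene was kept where 3 or more of the 12 libraries had 10 counts or more. The 4 ages entered one quasi-likelihood fit (common dispersion 0.0446), in R 4.3.3 with edgeR 4.0.16 and limma 3.58.1, with DESeq2 1.42.0 as an alternative. A call needed a Benjamini-Hochberg adjusted p under 0.05 over all 5526 genes tested. The 95% intervals are not adjusted. Log2 CPM values used a prior count of 2. Python 3.11.15 and matplotlib 3.10.9 made the plots. The fit was tested on simulated data with known changes. With 3 pigs per age, p-values rest on the spread between these pigs, and an exact permutation test of 3 against 3 was not used.

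All 9 members were named. From each list, the text names up to 3 called genes per direction, those of smallest p in P1 against P28, or, with none called, the 2 with the largest change. Cell type markers and genes called in other comparisons were named after their values were seen. For likeness, up to 3 genes with the highest r were taken. The members and lists were chosen with earlier results of these data known. Alternatives covered the scaling, the test, the filter, protein-coding genes only, the 2 ages compared alone, the replicate number as a block, the study's threshold (p up to 0.05 without adjustment, and a log2 fold change larger than 0.5 in size) and leaving out each library. The removal of the Metazoa_SRP genes, the left-out libraries for the list genes and the ratios within libraries were added after seeing the data.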

Additional observations from a re-analysis of the deposited data

How the results depend on the processing

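No called log2 fold change of a member changed direction under any alternative run, including the removal of the Metazoa_SRP genes, which was chosen after seeing the data. The study's threshold called 1 member between P1 and P3, 1 between P1 and P7, 2 between P3 and P7 and 5 between P3 and P28. DESeq2's test called 1 between P3 and P7. With 1 library left out, the number called ranged from 0 to 1 between P3 and P7 (1 without P3 library 4, P3 library 6 or P7 library 4), from 3 to 5 between P3 and P28 (5 without P3 library 4), and from 1 to 2 between P7 and P28 (1 without P28 library 5). The cause of these moves was not tested. ETFB was called between P1 and P28 without P3 library 5 (adjusted p = 0.0488), and ACAD9 between P3 and P28 without P3 library 4 (−0.35, adjusted p = 0.0472). Among all genes, the number called was 3 between P1 and P3 (1 to 122 over the alternatives other than the study's threshold, which called 585), 111 between P1 and P7 (21 to 364, and 648), 846 between P1 and P28 (464 to 1414, and 1276), 122 between P3 and P7 (15 to 363, and 717), 911 between P3 and P28 (450 to 1199, and 1329), and 1040 between P7 and P28 (576 to 1681, and 1387). Of the 29 pathway genes, 0 were called between P1 and P3 (0 to 1 over the alternatives, all added for these genes after seeing the data, and 5 by the study's threshold), 0 between P1 and P7 (0 to 3, and 4), 4 between P1 and P28 (1 without P28 library 6 to 12 without P3 library 5, and 5), 0 between P3 and P7 (0 to 4, and 6), 4 between P3 and P28 (2 to 7, and 4) and 8 between P7 and P28 (2 without P7 library 5 to 13 with these ages alone, and 8). Library numbers were not taken to pair the pigs, because correlations of deviations between libraries of the same number ran from −0.186 to 0.331, although 6 of 12 libraries were most like one of their own number. With the replicate number as a block, MLYCD was also called between P3 and P28 (−0.68, adjusted p = 0.045), which gave 4 members there, 2 between P1 and P28 and 2 between P7 and P28, and 77 genes of the whole table were called between P3 and P7. With 3 pigs per age, the intervals of ACADM, CRAT and PLIN2 leave changes of moderate size undetected.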
